A study of Mus musculus with 23 samples.

Results

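The miR-23/27/24 family of the mouse retina was measured as 6 locus rows, mir-23b, mir-27b, mir-24-1, mir-23a, mir-27a and mir-24-2, out of 903 mature miRNA rows in the deposited count table. The family was chosen by its mir-23b row, selected on counts that were already known to be higher in P23H than in wild-type retinas in these data, and its 6 rows were then taken by name. All 6 rows were present, all 6 passed the filter on low counts, and none jumped between 2 levels across libraries, as 65 other rows did. The family comes from a pair of genomic clusters, and each cluster gives a single primary transcript from which a miR-23, a miR-27 and a miR-24 are cut. Processing, loading and decay then act on each product separately, so the mature levels of cluster mates need not move together. In mice the family is known for roles in vessel sprouting, including new vessel growth in the choroid behind the retina, and in Xenopus a miR-24 limits cell death in the developing retina.

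Small RNA of 23 retinas was sequenced at postnatal day 90. The P23H mice were heterozygous knock-in animals that carry 1 copy of a misfolding-prone rhodopsin, a model of retinitis pigmentosa in which rod photoreceptors are lost. They had received DNA nanoparticles with a genomic construct of mouse rhodopsin (mouse gRho, 11 retinas of 7 mice) or of human rhodopsin (human gRHO, 3 retinas of 2 mice), or saline (2 retinas of 1 mouse), or were uninjected (5 retinas of 3 mice). Wild-type (WT) C57B mice gave 2 retinas, counted as 2 mice. Mice were read from the sample titles, and retinas of the same mouse were summed. The leading number of the P23H titles is shared by no groups, so if it is a cage number, treatment and cage cannot be told apart. Levels are given as CPM, the counts scaled to the same total of the mature miRNA reads of each mouse. In bulk retina, fewer cells of a type and less RNA per cell cannot be told apart.

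The chromosome 13 cluster holds mir-23b, mir-27b and mir-24-1 within 792 bases (chr13:63300484-63301275, plus strand, GRCm38.p6, RefSeq). It lies inside the protein-coding gene 2010111I01Rik on the same strand, with Fancc running over it on the opposite strand. In the GENCODE annotation of the same genome, mir-23b lies in an intron of 2010111I01Rik. Both mir-27b and mir-24-1 lie within an exon annotated as untranslated region, and other exons of the gene overlap part of mir-24-1. The chromosome 8 cluster holds mir-23a, mir-27a and mir-24-2 within 404 bases (chr8:84208518-84208921, plus strand). No protein-coding gene covers it, and the long non-coding gene Gm26532 begins in the last bases of mir-24-2.

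The mature sequences show which products of both clusters can be told apart by sequence, except miR-23b-3p, which the reference used lacked. They are printed from RefSeq, 5′ to 3′, with the seed (bases 2 to 8, which pair with target messages) in capitals.
mmu-miR-23a-3p: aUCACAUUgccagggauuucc
mmu-miR-27b-3p: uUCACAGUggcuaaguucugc
mmu-miR-27a-3p: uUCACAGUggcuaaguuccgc
mmu-miR-24-3p: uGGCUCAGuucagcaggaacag
mmu-miR-23b-5p: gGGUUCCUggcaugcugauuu
mmu-miR-23a-5p: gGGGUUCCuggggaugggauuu
mmu-miR-27b-5p: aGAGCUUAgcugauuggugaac
mmu-miR-27a-5p: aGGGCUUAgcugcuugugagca
mmu-miR-24-1-5p: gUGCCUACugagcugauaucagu
mmu-miR-24-2-5p: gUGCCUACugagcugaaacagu
The seed UCACAGU is shared by miR-27a-3p and miR-27b-3p. Counted from the 5′ end, with miR-27a-3p given first, these differ by the single substitution C19U. The seed UGCCUAC is shared by both miR-24 5p products, which differ further along. miR-24-3p is the same molecule at both loci, at bases 44 and 61 of its hairpins, so its sequence names no locus. The hairpins of mir-23b and mir-23a are shown because mir-23b is the row that chose the family and mir-23a is its counterpart, with the longest run they share in capitals.
mir-23b hairpin: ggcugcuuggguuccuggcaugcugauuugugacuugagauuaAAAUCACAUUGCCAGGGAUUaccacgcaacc
mir-23a hairpin: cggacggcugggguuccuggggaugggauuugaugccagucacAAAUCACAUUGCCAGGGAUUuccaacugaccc
That run is 20 bases long, and it lies on the 3p side of both hairpins. It holds the seed UCACAUU of miR-23a-3p. The mir-27b and mir-27a hairpins also share a run of 20 bases, and mir-24-1 and mir-24-2 one of 28. No row says which arm it counts, so a value below belongs to the row and not to 1 of these molecules. How reads that match both loci were assigned is not given in the sources used here. The split between mir-24-1 and mir-24-2, and between the other pairs where their reads match both, is therefore uncertain. Short antisense rows at the mir-24 loci, mir-3074-1 and mir-3074-2, held 1 to 16 and 2 to 29 reads per library.

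Libraries held between 5968388 and 16048954 mature miRNA reads, and mice between 6980992 and 25046363. Reads listed as matching several miRNAs (crossmapped) made up 10.1% to 17.9% of miRNA reads in P23H libraries, against 5.52% and 10.1% in WT libraries, where WT mouse 2 lay far below all 21 P23H libraries and WT mouse 1 beside the lowest of them. One library stood apart from the rest, the right retina of mouse gRho mouse 1. It had the highest crossmapped share and the lowest sum of the photoreceptor rows mir-183, mir-96 and mir-182, at 52.9 CPM. It also had the highest sums of the vessel and mural rows (3132 CPM) and of the surface epithelium rows (298 CPM). Uninjected mouse 2 had the next lowest photoreceptor sum, 198 CPM, and the next highest crossmapped share, 15.2%. Some results for mouse gRho against uninjected mice, and for right against left retinas, are also given without one or both of them. The correlations, the ranges of levels and ratios over P23H mice, and the permutation p-values printed below include them. Libraries with at least 3% ribosomal RNA numbered 3 of the mouse gRho and 3 of the uninjected group, and 0 of the others.

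mir-24-2 was by far the most read row of the family. It averaged 462 ± 131 CPM over all mice (SD, n = 15), and ranked 22 of 903 mature rows by total reads. mir-24-1 followed with 39.1 ± 5.4 CPM and mir-27b with 30.3 ± 6.7 CPM (SD, n = 15 each). mir-23a averaged 14.95 ± 5.90, mir-27a 14.2 ± 3.6 and mir-23b 14.0 ± 4.7 CPM (SD, n = 15 each). mir-24-2 exceeded mir-24-1 in 15 of 15 mice, and mir-27b exceeded mir-23a in 15 of 15. mir-24-1 was above mir-27b in 13 of 15 mice, with ranges that overlapped. The lowest 3 rows did not differ beyond their spread, since mir-23a was above mir-27a in 9 of 15 mice and mir-27a above mir-23b in 5 of 15. The rows of both clusters were thus of similar size for miR-23, whereas those of miR-24 lay apart by a log2 ratio of 2.32 to 3.999 in every mouse. The lowest count behind any member in a library was 47 reads, for mir-23b in WT mouse 2.

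**Figure D1:**
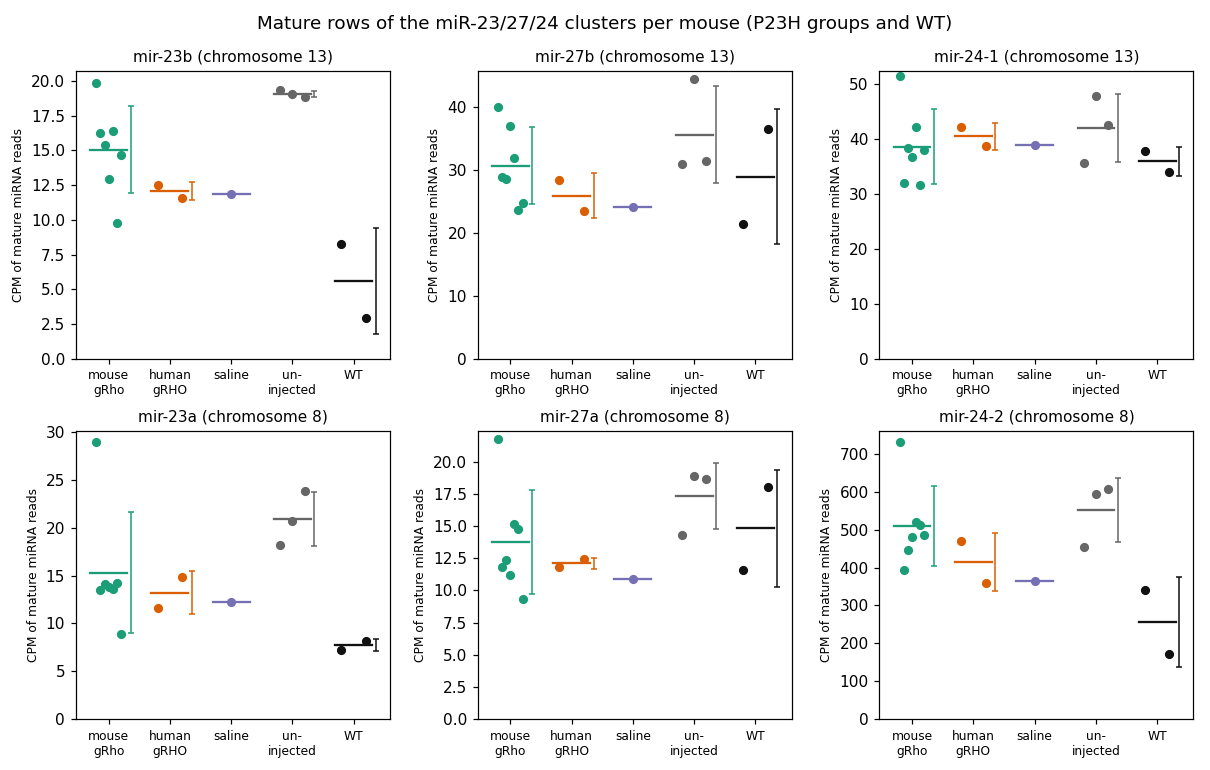
Levels of the 6 miR-23/27/24 rows in each mouse, in CPM of mature miRNA reads on axes that start at 0. Points are mice (7 mouse gRho, 2 human gRHO, 1 saline, 3 uninjected, 2 WT), horizontal lines are group means and bars are the SD of groups of 2 or more; for mir-23b, mir-23a and mir-24-2 all 13 P23H mice sit above both WT mice.

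The comparison with WT sets retinas with 1 mutant rhodopsin copy beside normal ones. Of the 13 P23H mice, 10 were injected, and only the 3 uninjected mice had neither an injection nor a construct. A separation of all 13 from WT is therefore not one of the mutant copy alone. mir-23b, mir-23a and mir-24-2 were higher in every P23H mouse than in both WT mice, while mir-27b, mir-24-1 and mir-27a overlapped. The split ran across clusters, with 1 higher row on chromosome 13 and 2 on chromosome 8. Since the family was picked for this comparison, its values are a description and carry no p-value. In all, 22 of 382 rows, 5.76%, had all 13 P23H mice above both WT mice on the CPM scale. With the scaling factors of the fit applied, 3.93% of rows did so, with mir-23b and mir-24-2 among them but not mir-23a. At an adjusted p of 0.05 in edgeR's quasi-likelihood test, 1.57% of the 382 rows were called for uninjected P23H against WT and 3.14% for mouse gRho against WT, which is the background for the choice of mir-23b. The WT mouse used decided these shares. Without WT mouse 2, 0 rows were called in either comparison (24 for uninjected and 26 for mouse gRho at an unadjusted p under 0.05, edgeR), and without WT mouse 1, 60 were called for uninjected and 64 for mouse gRho. With both WT mice, DESeq2 called 11 and 18 rows in the same order.

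mir-23b stood at 19.8, 16.3, 15.4, 12.97, 16.4, 9.78 and 14.7 CPM in the 7 mouse gRho mice. It stood at 12.5 and 11.6 CPM in the human gRHO mice, at 11.8 CPM in the saline mouse and at 19.3, 19.1 and 18.9 CPM in the uninjected mice, against 8.29 and 2.93 CPM in the WT mice. The lowest P23H mouse, mouse gRho mouse 6, had 73 reads and a 95% Poisson interval of 7.67 to 12.3 CPM. WT mouse 1 had 80 reads and an interval of 6.58 to 10.3 CPM, and these intervals overlapped. On a log scale WT mouse 1 lay nearer to that P23H mouse than to WT mouse 2. The edgeR log2 fold change against WT was 1.26 (SE 0.31) in mouse gRho, 0.94 (SE 0.36) in human gRHO, 1.02 (SE 0.42) in saline and 1.42 (SE 0.34) in uninjected retinas. Without WT mouse 2 these differences were 0.86, 0.45, 0.55 and 1.04, and without WT mouse 1 they were 1.98, 1.62, 1.70 and 2.18, in the same order of groups. The direction was that of higher levels in P23H in each of 14 to 21 alternative fits per comparison, while the size rested on which WT mouse was used.

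mir-23a, the row of the same name in the chromosome 8 cluster, stood between 8.94 and 29.0 CPM in the mouse gRho mice with a median of 13.9 CPM. It stood at 11.6 and 14.8 CPM in human gRHO, 12.3 CPM in saline, and 18.2, 20.8 and 23.9 CPM in uninjected mice, against 7.26 and 8.16 CPM in WT mice. On this scale the WT mice were close together. With the scaling factors of the fit applied they stood at 7.53 and 11.1 CPM, and mouse gRho mouse 7, at 9.96 CPM, lay between them. The log2 fold change against WT was 0.69 (SE 0.31) in mouse gRho, 0.49 (SE 0.37) in human gRHO, 0.49 (SE 0.44) in saline and 0.96 (SE 0.35) in uninjected retinas. Over the alternative fits these ran from 0.48 to 1.06, 0.28 to 0.77, 0.27 to 0.79 and 0.83 to 1.44, in the same order of groups.

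mir-24-2 measured between 394 and 731 CPM in the mouse gRho mice, with a median of 485 CPM. Human gRHO mice had 469 and 360.0 CPM, the saline mouse 365 CPM, and the uninjected mice 455, 594 and 607 CPM, against 340.5 and 172 CPM in the WT mice. The gap between human gRHO mouse 2 and WT mouse 1 was small beside the spread within the groups. The log2 fold change against WT was 0.79 (SE 0.26) in mouse gRho, 0.49 (SE 0.31) in human gRHO, 0.42 (SE 0.38) in saline and 0.71 (SE 0.29) in uninjected retinas. Over the alternative fits these ran from 0.58 to 1.19, 0.20 to 0.85, 0.13 to 0.77 and 0.53 to 1.16, in the same order of groups.

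The other 3 rows did not separate the genotypes. mir-27b ranged from 23.4 to 44.4 CPM in P23H mice, against 21.4 and 36.5 CPM in WT mice, and 3 of 13 P23H mice lay above both. mir-24-1 ranged from 31.6 to 51.4 CPM in P23H mice, against 37.7 and 34.0 CPM in WT mice. mir-27a ranged from 9.29 to 21.8 CPM in P23H mice, against 11.6 and 18.0 CPM in WT mice. Against WT, mouse gRho retinas had a log2 fold change of -0.23 (SE 0.27) for mir-27b, -0.15 (SE 0.21) for mir-24-1 and -0.43 (SE 0.27) for mir-27a. Uninjected retinas had -0.21 (SE 0.31) for mir-27b, -0.23 (SE 0.24) for mir-24-1 and -0.29 (SE 0.31) for mir-27a. Human gRHO retinas had -0.48 (SE 0.34) for mir-27b, -0.09 (SE 0.26) for mir-24-1 and -0.61 (SE 0.35) for mir-27a. Saline retinas had -0.48 (SE 0.43) for mir-27b, -0.04 (SE 0.32) for mir-24-1 and -0.65 (SE 0.43) for mir-27a. Before scaling, the uninjected means of mir-27b, mir-24-1 and mir-27a were 35.6, 42.0 and 17.3 CPM, against 28.9, 35.9 and 14.8 CPM in WT mice. The scaling factors were 0.96 and 0.73 in the WT mice and 1.01, 1.18 and 1.26 in the uninjected mice. The uninjected means thus lay above WT before scaling and below it in the fit. mir-27b and mir-24-1 changed sign in at least 1 alternative fit in each of the 4 groups against WT. mir-27a did so in mouse gRho and uninjected retinas, and in 0 of 16 alternative fits for human gRHO and 0 of 14 for saline. Taken by library, the vessel and photoreceptor sums overlapped between P23H and WT. The mir-204 and mir-211 sum and the surface epithelium sum overlapped only through the P23H libraries named below. The marker rows were not summed by mouse, as the member rows were. The summed mir-204 and mir-211 rows, of pigment epithelium and Mueller glia, ran from 97.5 to 298 CPM in P23H libraries. WT mouse 2 had 53.7 CPM and lay below that range, and WT mouse 1 had 99.6 CPM. WT mouse 1 lay inside it only through the left retina of human gRHO mouse 1, at 97.5 CPM. The right retina of that mouse had 142 CPM. Every other P23H library lay above both WT libraries in this sum, as every P23H mouse did for mir-23b, mir-23a and mir-24-2. The vessel and mural rows, 13 usable of 14 listed, summed to 969 to 3132 CPM in P23H libraries, against 1283 and 1670 CPM in WT libraries. The photoreceptor rows, 3 of 3 usable, summed to 52.9 to 943 CPM in P23H libraries, against 306 and 1101 CPM in WT libraries. The surface epithelium rows, 5 usable of 6 listed, summed to 74.7 to 298 CPM in P23H libraries, against 65.8 and 79.4 CPM in WT. Only the right retina of mouse gRho mouse 3 (74.7) and the left of mouse gRho mouse 7 (76.9) lay below WT mouse 1. For the muscle rows WT mouse 2, at 67.4 CPM, lay below all P23H libraries. Both WT libraries lay inside the P23H range for the neuron, red blood cell, and microglia and leukocyte rows. The part of these markers and of the crossmapped share in the difference from WT was not tested.

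Ratios between rows of a mouse remove its library scale, and they set the cluster mates side by side. On chromosome 8, the log2 ratio of mir-23a over mir-27a lay between -0.15 and 0.41 in the 13 P23H mice, against -0.64 and -1.10 in the WT mice. All P23H mice were thus above both WT mice in this ratio of 2 products of 1 transcript. The log2 ratio of mir-24-2 over mir-24-1 lay between 3.20 and 3.999 in P23H mice, against 3.16 and 2.32 in WT mice. These groups did not overlap either, but WT mouse 1 lay within 0.05 of the lowest P23H mouse. On chromosome 13, mir-23b over mir-27b lay between -1.48 and -0.66 in P23H mice, against -1.31 and -3.43 in WT mice, so only WT mouse 2 lay outside. mir-23b over mir-24-1, its other mate, lay between -1.71 and -0.86 in P23H mice, against -2.12 and -3.33 in WT mice, so both WT mice lay below all P23H mice. Between clusters, mir-27b over mir-23a lay between 0.39 and 1.42 in P23H mice, against 1.49 and 2.09 in WT mice, which were both above. In 11 of the 15 possible pairs of member rows the WT mice did not both lie on 1 side of the P23H range. How often ratios between other rows separate WT from P23H mice was not counted. The row mir-23b, in the separating pair with mir-24-1, was itself chosen on this comparison. A ratio removes the library scale but not any part of the crossmapped share, which was not tested. For mir-27b over mir-27a, which share a seed, P23H mice lay between 0.66 and 1.68, against 0.85 and 1.00 in WT mice, and the groups overlapped. Among the 13 P23H mice the steadiest pair was mir-23a with mir-27a, with an SD of the log2 ratio of 0.18. The loosest was mir-24-1 with mir-23a, from different clusters, with an SD of 0.37.

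**Figure D2:**
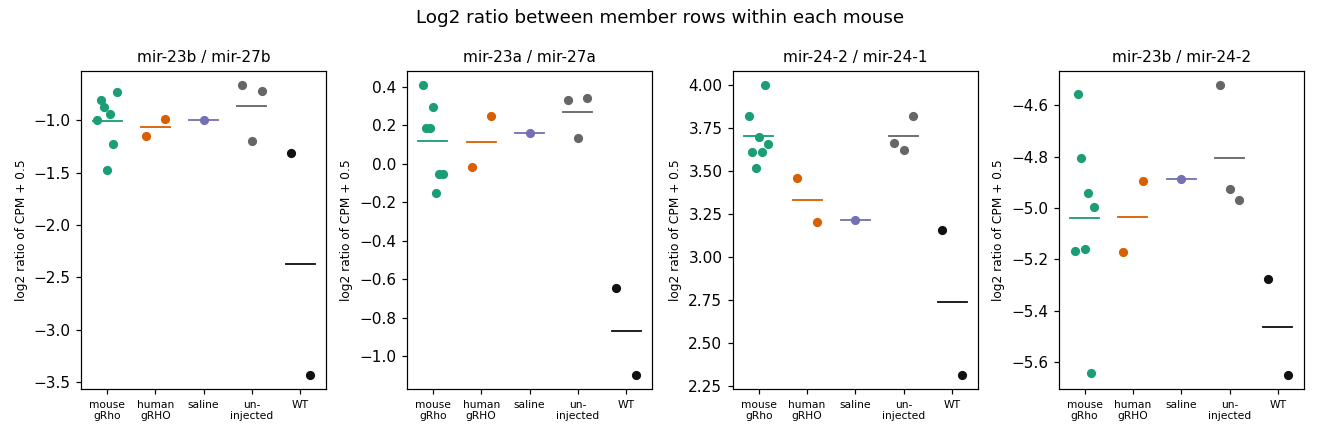
Log2 ratio between pairs of rows within each mouse (pseudocount 0.5 CPM), by group. Points are mice and lines are group means; the ratio of mir-23a over mir-27a is between -0.15 and 0.41 in P23H mice and at -0.64 and -1.10 in WT mice.

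Whether the rhodopsin nanoparticles or the injection changed the family was asked among P23H retinas, a comparison the choice of the rows did not use directly, although the uninjected and mouse gRho mice also entered the known comparisons with WT. No row of the family passed the threshold (edgeR quasi-likelihood, Benjamini-Hochberg over 382 rows). The background was the same in each of the 6 comparisons among P23H groups, with 0% of rows called. At an unadjusted p under 0.05 there were 18 rows for mouse gRho against uninjected, 10 for human gRHO against uninjected, 13 for saline against uninjected, 3 for mouse gRho against saline, 5 for human gRHO against saline and 11 for human gRHO against mouse gRho. None of those was a member of the family. DESeq2 also called 0 of the 6 member rows in each of these comparisons.

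The fit called neither mir-23b nor mir-23a. Before any further scaling, both were lower in most injected mice than in all 3 uninjected mice. For mir-23b, 6 of 7 mouse gRho mice, both human gRHO mice and the saline mouse lay below the lowest uninjected mouse, which had 18.9 CPM. The same counts held for mir-23a, with 18.2 CPM in the lowest uninjected mouse. The share of all rows with 6 of 7 mouse gRho mice below was not counted, so these counts have no background. The exception in both rows was mouse gRho mouse 1, whose right retina stands apart. With that retina left out, its left retina measured 9.76 CPM for mir-23b and 13.6 CPM for mir-23a, and all 7 mouse gRho mice lay below the uninjected mice in both rows. In that setting 4.97% of the 382 rows had all mouse gRho mice below all uninjected mice, against 2.62% with the retina kept, and with uninjected mouse 2 left out as well it was 8.64%, again with mir-23b and mir-23a. Human gRHO mice lay below all uninjected mice in 4 of the 6 member rows, where 17.5% of all rows did so. The saline mouse lay below them in 5 of 6 member rows, where 36.1% did so.

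The scaling factors of the fit bear on this pattern. They were 1.01, 1.18 and 1.26 in the uninjected mice and 0.90 to 1.10 in the mouse gRho mice, which lowers the scaled values of uninjected mice 2 and 3. After scaling, mir-23b stood at 19.2, 16.1 and 14.98 CPM in uninjected mice, and the mouse gRho mice, from 9.32 to 18.0 CPM, overlapped them. mir-23a stood at 18.0, 17.5 and 18.9 CPM in uninjected mice, and 6 of 7 mouse gRho mice lay below, from 9.96 to 14.4 CPM. The share of all rows that did so was not counted on this scale either. The human gRHO mice, at 12.4 and 11.6 CPM for mir-23b and 11.5 and 14.8 CPM for mir-23a, remained below in both rows. On this scale human gRHO mice lay below all uninjected mice in 3 member rows, where 11.3% of all rows did so. The saline mouse lay below them in 4 member rows, where 23.3% did so. Every mouse gRho mouse lay below them in 0 member rows, where 2.09% of all rows did so.

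For mouse gRho against uninjected retinas the log2 fold change was -0.15 for mir-23b (SE 0.24, 95% interval -0.66 to 0.35, adjusted p = 0.982). It was -0.27 for mir-23a (SE 0.25, interval -0.79 to 0.26, adjusted p = 0.974) and 0.09 for mir-24-2 (SE 0.22, interval -0.37 to 0.54). mir-27b, mir-24-1 and mir-27a differed by -0.02, 0.08 and -0.14. The median over the 6 rows was -0.08, beside 0.08 over all 382 rows. Without both libraries poor in photoreceptor rows, mir-23b stood at -0.31 and mir-23a at -0.49, with 0 members called. Without the libraries rich in ribosomal RNA they stood nearer to 0, at -0.12 (SE 0.36) for mir-23b and -0.12 (SE 0.44) for mir-23a. Without scaling factors mir-23b stood at -0.34 and mir-23a at -0.44, and the median over all rows moved to -0.11.

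Against uninjected retinas, human gRHO retinas differed by -0.48 for mir-23b (SE 0.32, 95% interval -1.16 to 0.20, adjusted p = 0.93) and by -0.47 for mir-23a (SE 0.34, interval -1.18 to 0.24). mir-24-2 differed by -0.22 and mir-24-1 by 0.14. The median over the family was -0.29, beside 0.01 over all rows. Saline retinas, with 1 mouse that the fit assumes to vary like the others, gave -0.40 for mir-23b (SE 0.41, interval -1.26 to 0.46, adjusted p = 0.91) and a family median of -0.32, beside -0.0050 over all rows. All these intervals include 0, and differences as large as their lower ends are within them.

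Injected groups were also set against each other. For mouse gRho against saline, log2 fold changes ran from -0.11 for mir-24-1 to 0.37 for mir-24-2 (SE 0.34). For human gRHO against saline they ran from -0.08 for mir-23b to 0.07 for mir-24-2, all smaller than their standard errors. Between the human and the mouse genomic construct, mir-23b differed by -0.33 (SE 0.29, 95% interval -0.93 to 0.27, adjusted p = 0.997) and mir-24-2 by -0.30 (SE 0.25). These comparisons share their groups and are not independent of each other.

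**Figure D3:**
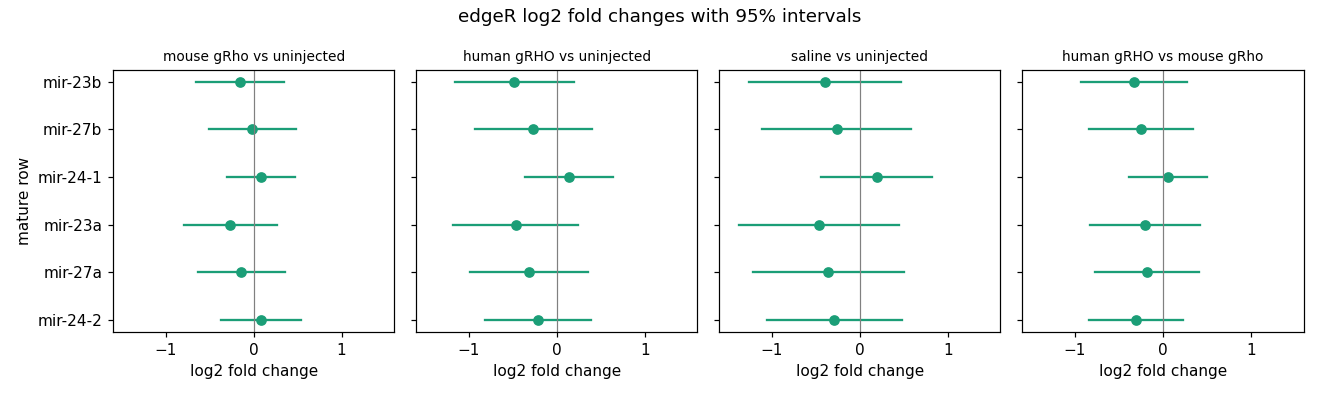
edgeR log2 fold changes (points) of the 6 rows with 95% intervals (lines) in 4 comparisons among P23H groups. Every interval crosses 0; mir-23b and mir-23a lie left of 0 in each panel, from -0.15 to -0.48.

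The cluster mates were compared between mouse gRho and uninjected mice in 4 pairs of rows of the same cluster, and counterpart rows of both clusters in 3 pairs, with an exact two-sided permutation test over 7 and 3 mice. None passed after adjustment. The smallest p belonged to mir-23a over mir-24-2, whose log2 ratio averaged -5.07 ± 0.34 (SD, n = 7) in mouse gRho mice and -4.68 ± 0.11 (SD, n = 3) in uninjected mice. The difference was -0.38 (exact permutation p = 0.05, adjusted p = 0.35). mir-23b over mir-24-1 differed by -0.23 (exact permutation p = 0.15, adjusted p = 0.525). mir-23a over mir-27a and mir-23b over mir-27b both differed by -0.15, and mir-24-1 over mir-24-2 by less than 0.01. With 7 and 3 mice the test has 120 arrangements, and the smallest exact p it can give is 0.0167. Adjusted over 7 pairs, a single pair alone could not go below 0.117, so the test could not have passed 1 pair by itself.

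Each retina was also read on its own. The right retina of mouse gRho mouse 1 lay above the median of the 23 libraries in all 6 rows, by a median of 1.16 on the log2 scale. Its own fellow eye lay at or below the median in all 6. The right and left retina measured 30.03 and 9.76 CPM for mir-23b, 44.7 and 13.6 CPM for mir-23a, and 1125 and 342 CPM for mir-24-2. Uninjected mouse 2 and the right retina of uninjected mouse 3 were the other 2 libraries above the median in all 6 rows, by medians of 0.49 and 0.56. WT mouse 2 was the lowest library for mir-23b and mir-24-2 and was above the median for mir-27b and mir-27a.

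**Figure D4:**
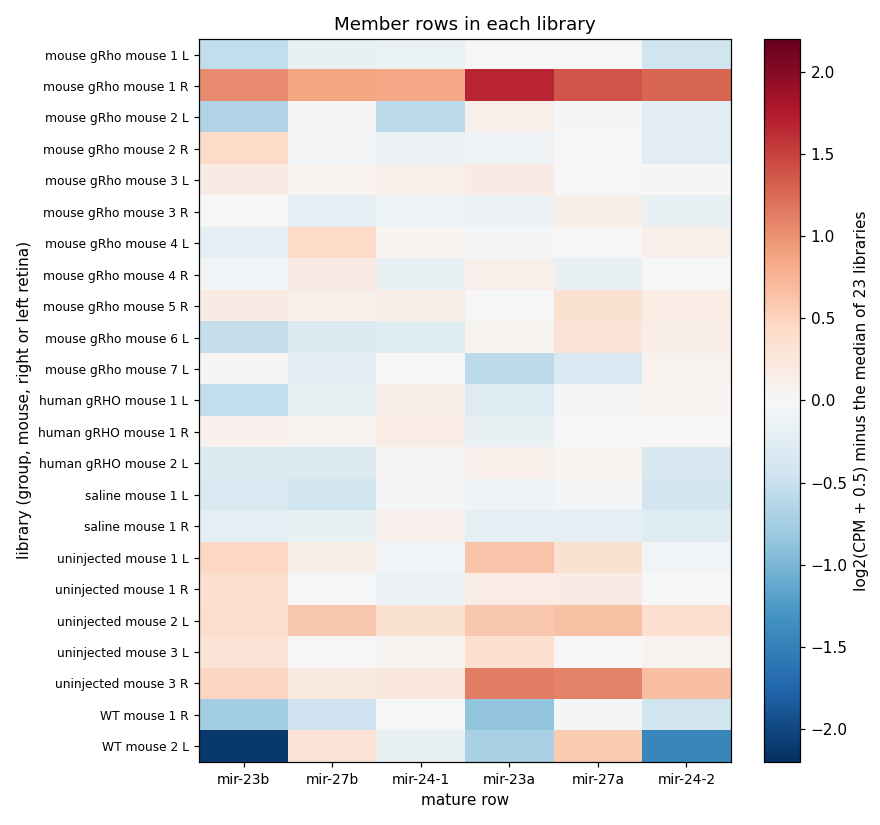
Member rows (columns) in each of the 23 libraries (rows, by group, mouse and eye), as log2(CPM + 0.5) minus the median of the libraries. Red is above and blue below the median; the right retina (R) of mouse gRho mouse 1 is above it in all 6 rows, and WT mouse 2 is far below it for mir-23b and mir-24-2 only.

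Right and left retinas were compared in the 8 mice with both, with the mouse as a block. No member was called, and 0% of 330 rows were (9 at an unadjusted p under 0.05). mir-23b was higher in the right retina in 6 of 8 mice, with a log2 difference of 0.35 (SE 0.21, adjusted p = 0.952, edgeR). The other rows were higher on the right in 4 or 5 of 8 mice. Without mouse gRho mouse 1, the differences of mir-23a, mir-24-2, mir-24-1 and mir-27b turned to -0.07, -0.0033, -0.03 and -0.08.

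The deposited table also holds a class of precursor rows. Which part of a hairpin this class covers is not given in the sources used here. mir-24-1 had the most reads of all 231 precursor rows, 2915 in total and 56 to 251 per library, although its mature row ranked 87. mir-27a and mir-23b reached at most 26 and 23 precursor reads per library, and mir-27b, mir-23a and mir-24-2 at most 17, 8 and 6. mir-24-2, with the most mature reads of the family, thus had 40 precursor reads in all. The mir-27b maximum of 17 came from WT mouse 2, and no P23H library had more than 4. For mir-24-1, precursor reads per 100 mature reads numbered 23.7 to 40.9 in the mouse gRho mice, 36.1 and 25.1 in human gRHO, 23.95 in saline and 36.2, 28.4 and 38.2 in uninjected mice, against 27.2 and 13.9 in WT mice. WT mouse 1 lay within the P23H range and WT mouse 2 below it. Fitted with the mature rows (419 rows, chosen after the data were seen), the precursor rows of mir-24-1, mir-27a and mir-23b were not called in any comparison among P23H groups, where 0% of rows were. For mouse gRho against uninjected the mir-24-1 precursor differed by -0.01 (SE 0.25, adjusted p = 0.992, edgeR). Stemloop rows of mir-23b, mir-27b and mir-27a held at most 11 reads per library.

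**Figure D5:**
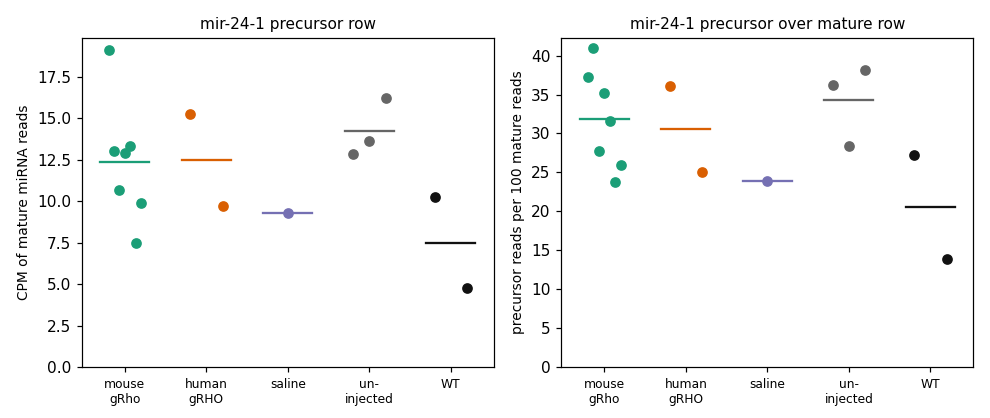
The mir-24-1 precursor row per mouse in CPM of mature miRNA reads (left) and per 100 mature reads of mir-24-1 (right), by group, with group means as lines. P23H mice range from 23.7 to 40.9 precursor reads per 100 mature reads, and WT mice stand at 27.2 and 13.9.

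The rows whose levels followed mir-23b most closely over the 15 mice were sought among 126 rows that averaged 10 CPM or more. These were mir-214 (Pearson r = 0.92), mir-125b-1 (0.91), mir-221 (0.90), mir-674 (0.90) and mir-99b (0.89). Among the 13 P23H mice alone, r was 0.73 for mir-214, 0.63 for mir-125b-1, 0.35 for mir-221, 0.57 for mir-674 and 0.71 for mir-99b, so part of the likeness rests on the WT mice. For mir-24-2 the closest rows were mir-214 (0.94), mir-30a (0.93), mir-125b-2 (0.92), mir-3068 (0.89) and mir-199a-1 (0.89), with values of 0.71 to 0.83 among P23H mice. The rows of a mouse share its library scale, and the rows named were chosen as the highest. Of the cluster mates of mir-23b, mir-27b had 0.19 over the 15 mice and 0.71 among the P23H mice, where it stood above mir-125b-1, mir-674 and mir-221. mir-24-1 had 0.48 over the 15 mice and 0.52 among the P23H mice. mir-24-2, from the other cluster, had 0.88 with mir-23b over the 15 mice and 0.56 among the P23H mice.

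Because the family is known from vessels, 14 vessel and mural miRNAs, such as mir-126a of endothelial cells and mir-143 and mir-145a of smooth muscle and pericytes, were examined beside it. Of these, 11 were tested and 0 were called higher or lower in each of the 6 comparisons among P23H groups. Their median log2 fold change was 0.04 for mouse gRho against uninjected, beside 0.08 over all rows, with 6 higher and 5 lower. It was -0.00041 for human gRHO against uninjected, beside 0.01. For saline against uninjected it was -0.42, beside -0.0050, with 2 higher and 9 lower.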

How the data were processed

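The authors deposited a matrix of read counts, by miRNA locus and class (mature, precursor, stemloop, unannotated), and the read total of every alignment class in each library. Retinas were flash frozen, RNA was taken with Trizol and libraries came from a NEXTflex small RNA v3 kit, per the labels' protocols. The submitters' processing notes name DESeq2, without a version. The aligner, counter, miRNA annotation and build were not given in the sources used here. No column was unused (0).

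Mature rows summed to 10.4% to 19.5% of the mature miRNA reads (median 13.4%), so CPM compare a row between mice and are not its share of all miRNA. Titles were read as cage, ear mark and eye, which is an inference. The members and lists were chosen with earlier results of these data known.

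Counts summed per mouse were fitted with edgeR 4.0.16 in R 4.3.3 (quasi-likelihood, robust, 5 groups in 1 fit, TMM factors on mature miRNA reads), for rows with 10 or more counts in 3 or more mice. Two-level rows, 65 of the 337 with 30 reads in some library, were left out. These have a gap in sorted log2(CPM + 0.5) of 3.5 or more, or of 2 or more where both sides hold 2 libraries. P-values were adjusted by Benjamini-Hochberg, threshold 0.05, and measure the spread between these mice, which may be partly technical. Mate ratios used log2(CPM + 0.5) and exact permutation. Poisson intervals (95%) cover counting error only. Alternatives included DESeq2 1.42.0, other library sizes and scaling, no filter, each library as a replicate, and leaving out mice or libraries. Named rows are the members in every class, and the 5 rows most correlated with mir-23b and with mir-24-2. The fit was tested on simulated data.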

Additional observations from a re-analysis of the deposited data

Results flagged for a closer look

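In a group of 7 mice, the highest mouse was flagged where its gap to the next, divided by the range of the group, passed Dixon's 95% critical value of 0.568. Among 9 rows tested in the mouse gRho group, chance flags about 1 in 20 groups, and 2 were flagged. mir-23a in mouse gRho mouse 1 stood at 29.0 CPM (gap over range 0.738). mir-24-2 in the same mouse stood at 731 CPM (0.627). Both values come from its right retina, which measured 44.7 CPM for mir-23a and 1125 CPM for mir-24-2, beside 13.6 and 342 CPM in its left retina.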

How the results depend on the processing

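No member was called in any of 708 tests of the comparisons without WT under the alternatives, where the lowest adjusted p was 0.575 (edgeR or DESeq2). For mir-23b against WT, leaving out 1 mouse at a time gave these log2 fold changes: mouse gRho 0.86 to 1.98, human gRHO 0.45 to 1.62, saline 0.55 to 1.70 and uninjected 1.04 to 2.18, with both ends from leaving out a WT mouse. Fitting without TMM factors gave 1.78 in uninjected against WT retinas. Uncalled log2 fold changes near 0 changed sign in the following settings, and the cause was not tested. In mouse gRho against uninjected, mir-27a was 0.011 and mir-27b was 0.16 without rRNA-rich libraries, mir-24-2 was -0.11 and mir-24-1 was -0.12 without TMM factors, and mir-24-2 was -0.025 and mir-24-1 was -0.026 with total aligned reads and no TMM factors. There, mir-24-2 was -0.025 and mir-27b was 0.059 without libraries poor in retinal miRNAs, and mir-27b was 0.051 with each library a replicate. In human gRHO against uninjected, mir-24-1 was -0.052 without TMM factors. In saline against uninjected, mir-24-1 was -0.11 without TMM factors. In mouse gRho against saline, mir-24-1 was 0.018 without rRNA-rich libraries. In human gRHO against saline, mir-27a was -0.0046 and mir-27b was 0.014 with each library a replicate, mir-23b was 0.029, mir-23a was 0.11, mir-24-1 was 0.060 and mir-27b was 0.11 without TMM factors, and mir-23a was 0.0063 with DESeq2 size factors. There, mir-23a was 0.0077 and mir-27b was 0.0059 with total aligned reads as library size, mir-23a was 0.055, mir-24-1 was 0.0052 and mir-27b was 0.053 with total aligned reads and no TMM factors, and mir-23a was 0.020 and mir-27b was 0.026 with no filter. There, mir-23a was 0.0044 with DESeq2, mir-23a was 0.0041 and mir-27b was 6.14e-05 without rRNA-rich libraries, and mir-27b was 0.0018 with only the groups compared. In human gRHO against mouse gRho, mir-24-1 was -0.065 without rRNA-rich libraries. The log2 ratio difference of mir-24-1 and mir-24-2 between mouse gRho and uninjected mice was -0.00017, and it was 0.0042 with a pseudocount of 2, it was 0.031 without rRNA-rich libraries, and it was 0.11 without libraries poor in retinal miRNAs. Leaving out 1 mouse at a time, the ranges of fold changes that changed sign were as follows. Human gRHO against mouse gRho fits gave mir-23a from -0.43 to 0.029 and mir-24-1 from -0.013 to 0.095. Human gRHO against saline fits gave mir-23a from -0.19 to 0.22, mir-24-1 from -0.059 to 0.010, mir-24-2 from -0.074 to 0.25, mir-27a from -0.0012 to 0.13 and mir-27b from -0.094 to 0.13. Right against left retina fits gave mir-23a from -0.073 to 0.18, mir-24-1 from -0.031 to 0.12, mir-24-2 from -0.0033 to 0.24 and mir-27b from -0.078 to 0.089. Human gRHO against uninjected fits gave mir-24-1 from -0.030 to 0.21. Mouse gRho against uninjected fits gave mir-24-1 from -0.062 to 0.15, mir-24-2 from -0.068 to 0.12 and mir-27b from -0.15 to 0.14. The mir-24-1 over mir-24-2 ratio difference ranged from -0.060 to 0.049. Leaving out the only saline mouse was not run for its comparisons. Groups were not paired with each other, since they hold different mice. Only the right and left retinas of a mouse were paired. Depth limits mir-23b most in WT, with 80 and 47 reads.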
